A study of Mus musculus with 16 samples.

Results

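The 47 genes described here encode proteins of DNA replication and mitosis, and they were taken by symbol from a list of such genes. All 47 were measured, by 111 probe sets that carry a single gene symbol, out of 18193 genes and 34945 such probe sets on the arrays. RNA came from dorsal incisional wounds of C57BL/6 mice that are labelled female and wild type, and the wounds were either unstressed or stressed, that is mechanically loaded in a model of hypertrophic scarring. The 4 groups were unstressed wounds at day 6, stressed wounds at day 6 after 48 hours of loading, unstressed wounds at day 14 and stressed wounds at day 14 after 10 days of loading, with 4 arrays each and, per the design text, 4 mice per group and time point. No source used here states the animals' age. The log2 signals had been centred for every probe set, so a value of 0 marks a reference level that is unknown, and arrays can be compared with each other but genes cannot. The comparisons ask how loading, and the time after wounding, went with the transcripts of these genes.

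A cell licenses its DNA for replication in G1 phase, when Cdc6 and Cdt1 load the MCM helicase (Mcm2 to Mcm7) onto origins. E2F transcription factors then switch on the genes of S phase, whose products copy the DNA and supply nucleotides, and later MuvB with B-Myb (Mybl2) and Foxm1 switches on the genes of G2 phase and mitosis. In healing skin, division of keratinocytes, fibroblasts and endothelial cells closes and fills the wound, and division in the hair follicle matrix makes the growing hair. The arrays read whole wound tissue, so fewer dividing cells and less RNA per cell cannot be told apart.

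Of the 16 arrays, 12 had low Xist signal (-0.53 to 0.81) and 4 had high Xist signal (5.98 to 6.30), although all mice are labelled female. Xist is the RNA that coats the inactive X chromosome. The 4 high arrays were replicates 3 and 4 of both day 14 groups, where the mean of the Y-linked genes was -3.97 to -3.53, against -0.99 to 0.74 on the other 12. The fits of the members for loading and time were also made without these 4 arrays. The median of all genes lay between -0.11 and 0.07 on every array. Because of the centring, the presence of the tissue's defining markers could not be judged.

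Promoters of the members were read from RefSeq (GRCm38.p6, 250 bases before to 50 after the start), and 39 of the 47 members had an entry, with 42 promoters among them. The motifs searched, on both strands, were CCAAT, the box bound by NF-Y; TTTGAA and TTCGAA, forms of the cell cycle homology region (CHR) that MuvB binds; and TTTCCCGC, TTTGGCGC, TTTCGCGC and TTTGCCGC, forms of the E2F site. Matches may overlap, as the E2F site and the CCAAT box do near the start of Mcm7. The 6 promoters shown are those of the 3 S phase and 3 mitosis members that had the largest called time differences in stressed wounds and an entry, and capitals mark the motif matches. They lie at Hells at chr19:38930740-38931039 (plus strand), Mcm7 at chr5:138171834-138172133 (minus strand), Mcm3 at chr1:20820263-20820562 (minus strand), Kif11 at chr19:37376132-37376431 (plus strand), Cenpe at chr3:135212313-135212612 (plus strand), Ttk at chr9:83834439-83834738 (plus strand). Mcm7 has 2 promoters in the table, of which the first listed is shown.
Hells: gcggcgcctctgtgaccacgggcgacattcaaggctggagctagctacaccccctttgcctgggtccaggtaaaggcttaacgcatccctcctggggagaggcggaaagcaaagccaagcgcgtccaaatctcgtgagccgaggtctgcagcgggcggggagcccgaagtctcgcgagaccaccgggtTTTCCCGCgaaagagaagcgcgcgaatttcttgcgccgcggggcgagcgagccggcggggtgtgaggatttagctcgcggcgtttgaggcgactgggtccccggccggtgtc
Mcm7: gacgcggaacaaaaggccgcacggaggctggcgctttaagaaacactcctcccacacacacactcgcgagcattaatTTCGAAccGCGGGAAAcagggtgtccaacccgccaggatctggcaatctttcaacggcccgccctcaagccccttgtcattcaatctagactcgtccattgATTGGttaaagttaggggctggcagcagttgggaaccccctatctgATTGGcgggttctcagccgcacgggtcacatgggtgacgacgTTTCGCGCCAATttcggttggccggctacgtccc
Mcm3: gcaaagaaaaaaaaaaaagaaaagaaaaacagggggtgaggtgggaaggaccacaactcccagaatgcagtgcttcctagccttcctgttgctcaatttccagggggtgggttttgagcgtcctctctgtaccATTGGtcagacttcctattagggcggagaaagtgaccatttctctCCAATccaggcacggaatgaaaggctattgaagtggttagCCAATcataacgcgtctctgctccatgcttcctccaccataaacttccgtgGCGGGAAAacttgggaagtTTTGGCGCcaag
Kif11: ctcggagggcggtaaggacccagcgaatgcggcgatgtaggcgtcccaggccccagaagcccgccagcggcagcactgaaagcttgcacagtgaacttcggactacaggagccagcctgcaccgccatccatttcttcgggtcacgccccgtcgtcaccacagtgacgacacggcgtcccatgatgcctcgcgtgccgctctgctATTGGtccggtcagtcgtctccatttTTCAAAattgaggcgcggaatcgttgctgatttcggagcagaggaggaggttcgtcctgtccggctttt
Cenpe: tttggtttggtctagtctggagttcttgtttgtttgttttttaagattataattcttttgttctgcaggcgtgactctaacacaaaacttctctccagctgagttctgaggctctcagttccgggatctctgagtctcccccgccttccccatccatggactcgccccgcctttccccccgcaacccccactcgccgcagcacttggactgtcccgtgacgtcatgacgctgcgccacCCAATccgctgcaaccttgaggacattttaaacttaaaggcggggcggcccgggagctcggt
Ttk: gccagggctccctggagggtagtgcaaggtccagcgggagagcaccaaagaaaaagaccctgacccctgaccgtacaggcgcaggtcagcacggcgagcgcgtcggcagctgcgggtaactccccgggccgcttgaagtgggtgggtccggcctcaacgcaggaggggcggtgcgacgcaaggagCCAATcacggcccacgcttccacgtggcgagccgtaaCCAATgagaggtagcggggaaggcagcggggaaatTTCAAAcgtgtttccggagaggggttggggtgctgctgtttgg

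The E2F forms were found in 8 of 16 promoters of S phase members (50%) and in 0 of 21 promoters of mitosis members. A CHR form showed the opposite distribution, with 2 of 16 S phase promoters (12.5%) and 16 of 21 mitosis promoters (76.2%). CCAAT was in 11 of 16 (68.8%) and 16 of 21 (76.2%). Among all 32851 promoters of the table, 2.26% held an E2F form, 19.2% a CHR form and 37.4% a CCAAT box. Of the promoters shown, those of Hells, Mcm7 and Mcm3 hold an E2F form, those of Mcm7, Kif11 and Ttk a CHR form, and that of Cenpe only a CCAAT box. A match is a string of letters in the reference, and no binding was measured.

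**Figure D1:**
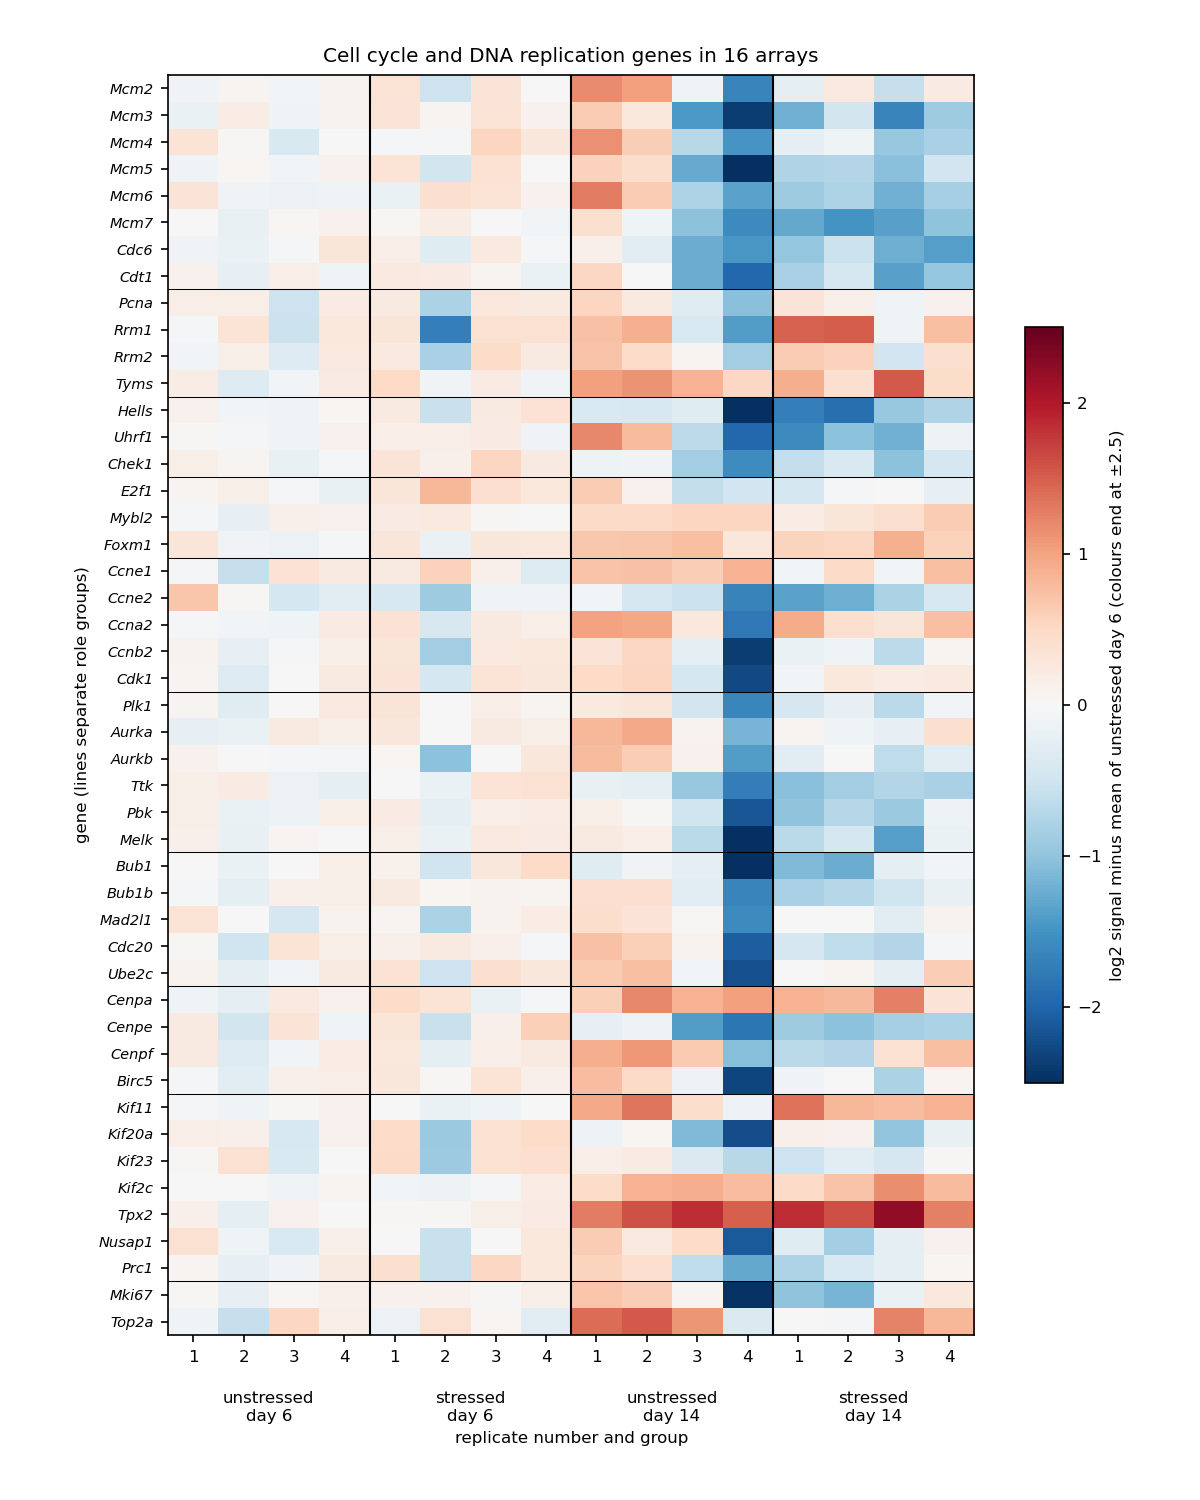
Heat map of the 47 genes (rows, in 10 role groups) on the 16 arrays (columns, 4 per group), as log2 signal minus the mean of the 4 unstressed day 6 arrays. Most rows are blue on unstressed day 14 replicate 4, and Tpx2, Kif2c and Cenpa are raised on all 8 day 14 arrays.

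The members differed among the 4 unstressed day 14 wounds more than in any other group. The median SD of a member there was 0.97, against 0.24 for the median gene, a ratio of 3.99, while the ratios were 1.0 in unstressed day 6, 1.46 in stressed day 6 and 1.33 in stressed day 14 wounds. The median of all members was 0.48, 0.35, -0.25 and -1.55 on unstressed day 14 replicates 1 to 4, and -0.44, -0.30, -0.45 and -0.04 on the stressed ones. Replicate 4 of the unstressed day 14 wounds was the lowest of its group in 41 of 47 members, against 25% of all genes. The control list of ribosomal proteins had a median of -0.18 on that array, against -0.02 to 0.08 on the other 3 of its group. At day 6, stressed replicate 2 was the lowest of its group in 35 of 47 members, against 31.1% of all genes. The same array was the highest of its group in 7 members and in 43.5% of all genes.

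The members moved together across arrays. Over the 1081 pairs of members, the median Pearson correlation of the deviations from group means was 0.70 over 16 arrays, 0.41 over the 8 day 6 arrays, 0.81 over the 8 day 14 arrays and 0.40 without unstressed day 14 replicate 4. These points share arrays and tissue, and the correlations are descriptions.

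**Figure D2:**
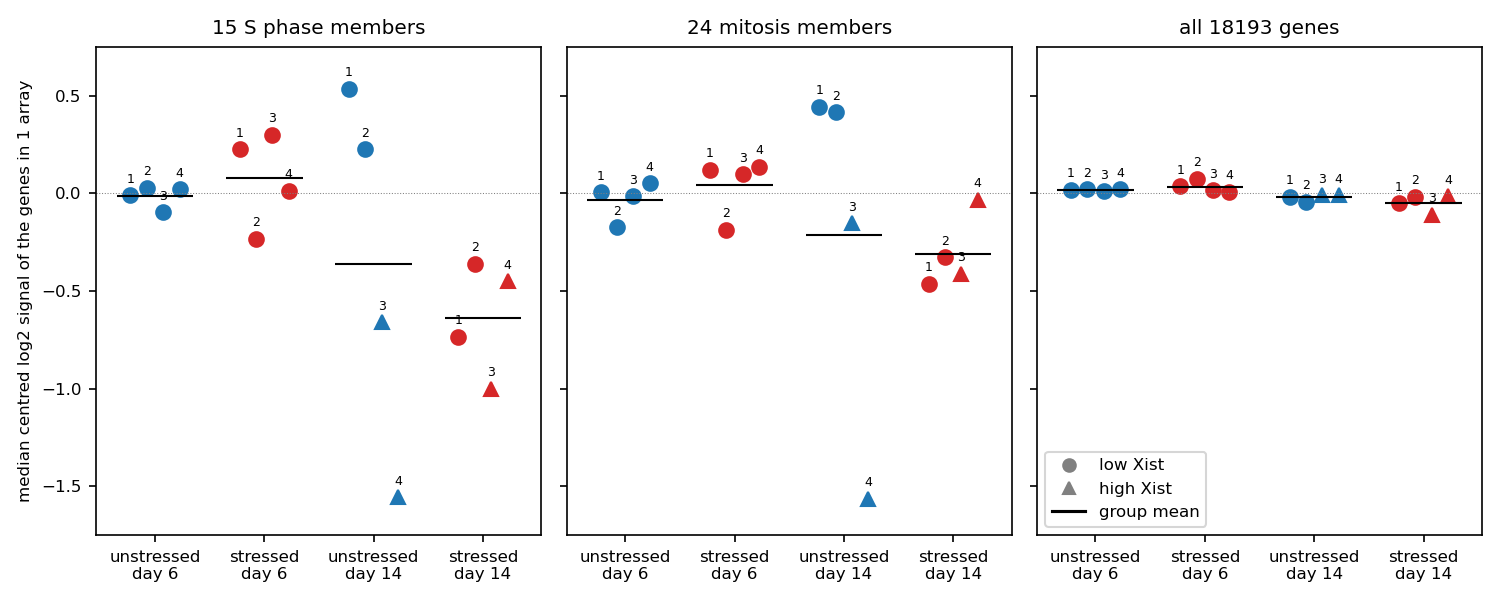
Median centred log2 signal of the 15 S phase members, the 24 mitosis members and all 18193 genes on each array, by group (number: replicate; circle: low Xist; triangle: high Xist; line: group mean). The member medians of the unstressed day 14 wounds run from 0.54 to -1.56 for S phase and from 0.44 to -1.56 for mitosis, while the medians of all genes stay near 0.

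No member passed an adjusted p of 0.05 in limma for loading at day 14 (0 of 47, against 8.15% of all genes), and 2 had an unadjusted p under 0.05. In stressed wounds 20 members were higher and 27 lower, with a median difference of -0.09 on the log2 scale (0.01 for all genes). Among the licensing factors, Mcm7, a subunit of the replicative helicase, was 0.48, -0.01, -0.95 and -1.51 in unstressed and -1.19, -1.41, -1.27 and -0.91 in stressed replicates 1 to 4. The unstressed wounds thus ran from the highest to the lowest value and enclosed all stressed ones, for a difference of -0.70 (SE 0.30, adjusted p = 0.17 in limma). Of the 8 licensing members, 7 were lower and 1, Mcm5, higher (0.20, SE 0.63), by the probe sets used. Mcm5 was -3.53 on unstressed replicate 4, and its other probe sets differed by -0.25 and -0.48. Other probe sets were higher with load for Mcm3 (0.46), Mcm4 (0.11), Mcm7 (0.004) and Cdt1 (0.03 and 0.02).

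Of the replication fork and nucleotide genes, Rrm1, the large subunit of ribonucleotide reductase, was 0.49, 0.64, -0.62 and -1.64 in unstressed and 1.24, 1.28, -0.33 and 0.51 in stressed day 14 wounds. Stressed replicates 1 and 2 were the highest of the 8, but the groups overlapped (difference 0.96, SE 0.54, adjusted p = 0.3 in limma). The other Rrm1 probe sets differed by -0.01 and -0.30. Pcna, the sliding clamp of the replication fork, differed by 0.26 (SE 0.30, adjusted p = 0.67 in limma). Uhrf1, which carries DNA methylation through replication, was 1.31, 0.89, -0.55 and -1.87 without load and -1.49, -0.92, -1.09 and -0.03 with load. Its unstressed replicates 1 and 2 were the highest of all day 14 wounds, and unstressed replicate 4 was the lowest.

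Mki67, the Ki-67 marker of dividing cells, was 0.66, 0.58, 0.03 and -2.52 in unstressed and -1.04, -1.20, -0.20 and 0.23 in stressed day 14 wounds. Here too the unstressed wounds held both the highest and the lowest value, for a difference of -0.24 (SE 0.52, adjusted p = 0.83 in limma). Top2a, the topoisomerase that untangles sister chromatids, was 0.96, 1.09, 0.66 and -0.80 without load and -0.44, -0.47, 0.80 and 0.40 with load. Cenpf, a kinetochore protein, was 0.73, 0.91, 0.49 and -1.24 without load and -0.85, -0.91, 0.21 and 0.59 with load. In both genes unstressed replicates 1 and 2 were the highest of all day 14 wounds, and unstressed replicate 4 was the lowest.

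In the other roles the smallest p-values also missed the threshold. Ccne1, the cyclin of the entry into S phase, differed by -0.46 (SE 0.23, adjusted p = 0.25 in limma), and Kif20a, a kinesin of cytokinesis, by 0.62 (SE 0.44, adjusted p = 0.42 in limma). Bub1b, the checkpoint protein BubR1, differed by -0.29, Aurkb, the Aurora kinase of the centromere, by -0.33, and the transcription factor Mybl2 by -0.13. Mybl2 has another probe set that passed when all probe sets were fitted (-0.72, adjusted p = 0.014 in limma).

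The loading difference at day 14 took opposite signs in the 2 Xist classes. In the low class, replicates 1 and 2, 43 of 47 members were lower with load (median -0.74), and in the high class, replicates 3 and 4, 44 of 47 were higher (median 0.64). A fit with the day 14 groups split by class, chosen after the data were seen, called 11 members lower in the low class and 0 higher (14.7% of all genes were called, 7.98% lower and 6.73% higher), and 0 in the high class (2.79%, 1.56% higher and 1.23% lower), where 12 members had an unadjusted p under 0.05. The 11 were Mcm3, Mcm4, Mcm6, Mcm7, Cdt1, Uhrf1, Bub1b, Cenpf, Prc1, Mki67 and Top2a, with differences from -0.87 to -2.30. Each class holds 2 arrays per group, and the class coincides with the replicate number.

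The difference between the classes itself was positive in 45 of 47 members and passed for 3, all positive (0.918% of all genes, 0.517% positive and 0.401% negative). These were Mcm6 (1.84, SE 0.37, adjusted p = 0.039), Mcm7 (1.67, SE 0.30, adjusted p = 0.025) and Uhrf1 (2.95, SE 0.53, adjusted p = 0.025), all in limma. The class difference was fitted only for the probe sets used. Over all arrays, loading at day 14 differed by -0.83 for the Uhrf1 probe set used and by -0.12 for the other. The other Mcm7 probe sets differed by 0.004, -0.32 and -0.06 (used: -0.70), and those of Mcm6 by -0.28 and -0.01 (used: -0.87). Mcm6, a helicase subunit like Mcm7, was 1.41, 0.76, -0.66 and -1.22 without load and -0.76, -0.65, -1.09 and -0.70 with load. Its stressed wounds lay close together in both classes, and its unstressed wounds lay above them in the low class.

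**Figure D3:**
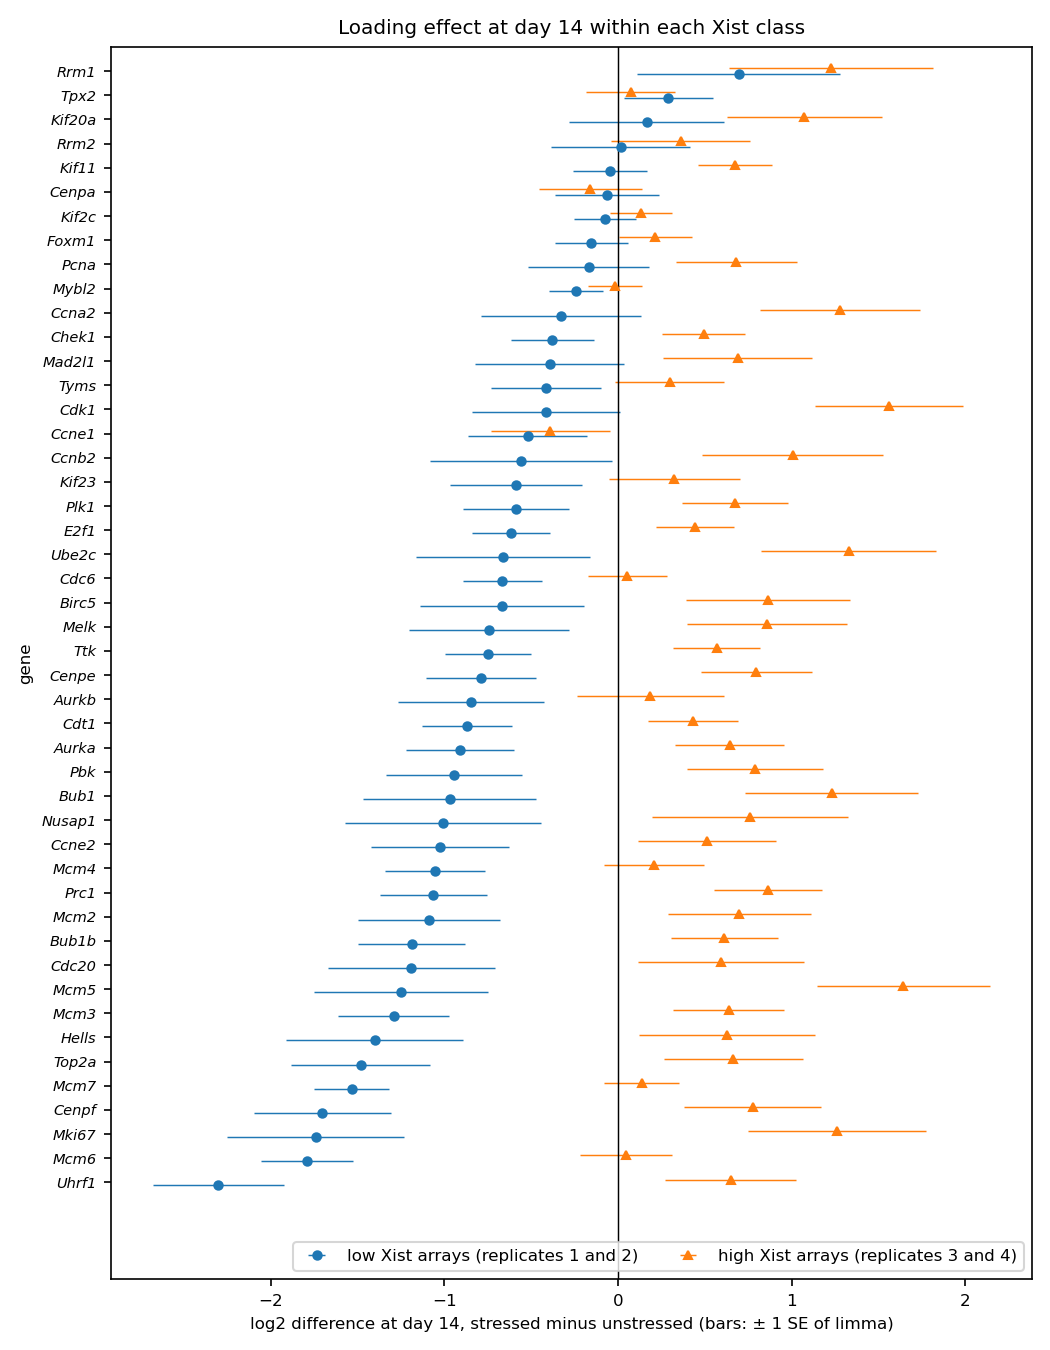
Loading difference at day 14 (stressed minus unstressed, log2, bars ± 1 SE of the fit) of each member in the low Xist class (replicates 1 and 2) and the high Xist class (replicates 3 and 4). In the low class 43 of 47 genes lie below 0, and in the high class 44 of 47 lie above it.

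The single array unstressed day 14 replicate 4 weighed on the high class. Without it, that class had 21 members higher and 26 lower (median -0.01), with 0 called in limma and 0 at an unadjusted p under 0.05 (2.51% of all genes were called), while 20 were called lower in the low class (17% of all genes, 9.44% lower). The unstressed arm of the high class is then 1 array, replicate 3, which is assumed to vary like the arrays of the other groups. The class difference then passed for 2 members, Mki67 (1.73, SE 0.26, adjusted p = 0.015) and Uhrf1 (2.29, SE 0.46, adjusted p = 0.042 in limma), against 0.737% of all genes (0.429% positive), and its median was 0.74, against 1.54 with all arrays. In the fit of 4 groups without that array, 7 members were called, all lower with load, against 7.81% of all genes (3.61% higher, 4.19% lower): Uhrf1 (-1.43), Mcm6 (-1.30), Mcm7 (-1.04), Mki67 (-0.98), Hells (-0.96), Cdc20 (-0.93) and Bub1b (-0.75). Without all 4 high Xist arrays 23 were called lower and 0 higher, against 10.6% and 8.05% of all genes (18.7% in either direction).

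Loading at day 6 called 0 of 47 members (0.055% of all genes), and 0 had an unadjusted p under 0.05. Small positive differences prevailed, with 37 members higher, 10 lower and a median of 0.10 (0.01 for all genes). The smallest p belonged to E2f1, the transcription factor of S phase genes, at -0.02, 0.05, -0.12 and -0.28 in unstressed and 0.22, 0.75, 0.33 and 0.18 in stressed wounds. These groups did not overlap (3.35% of all genes were higher without overlap), and the difference of 0.46 (SE 0.23) had an adjusted p = 0.82 in limma. Chek1, the checkpoint kinase of replication stress, differed by 0.30 (SE 0.26), and Mki67 by 0.10 (SE 0.52).

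Stressed day 6 replicate 2 stood below the other 3 stressed wounds in most of these genes. Rrm1 was 0.06, -1.95, 0.14 and 0.13 in stressed replicates 1 to 4, Pcna 0.05, -0.96, 0.08 and 0.06, and Kif20a 0.34, -1.04, 0.28 and 0.36. The same array was above the others for E2f1, at 0.75.

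The difference between the loading differences of the 2 days passed for 0 of 47 members (0.0385% of all genes), and 0 had an unadjusted p under 0.05. Its median was -0.19, with 32 members negative. Ccne1 (-0.60, SE 0.33, adjusted p = 0.58) and Mcm6 (-1.04, SE 0.58, adjusted p = 0.58) had the smallest p-values in limma. Without the high Xist arrays it passed for 18 members, all negative (7.79% of all genes, 4.93% negative and 2.86% positive), with a median of -0.85. It is the same quantity as the difference between the time effects in stressed and unstressed wounds.

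From day 6 to day 14, in stressed wounds, 16 of 47 members passed in limma, 6 higher and 10 lower, which is a smaller share (34%) than the 58.3% of all genes. By direction, 24% of all genes were called higher and 34.3% lower. The median difference of the members was -0.39, against -0.13 for all genes. All 8 licensing genes were lower, 5 of them past the threshold, as were all 3 chromatin and checkpoint genes (2 past it) and all 6 mitotic kinases (1 past it). All 4 fork and nucleotide genes were higher (1 past it), by the probe sets used. Other probe sets differed by -0.63 and -0.55 for Rrm2, by -0.14 and 0.01 for Rrm1 and by -0.23 to 0.37 for Tyms.

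Hells, a remodeller of replicating chromatin, was 0.32, -0.47, 0.31 and 0.45 in stressed wounds at day 6 and -1.62, -1.80, -0.87 and -0.67 at day 14. All day 14 wounds lay below all day 6 wounds, and Hells fell by 1.39 (SE 0.43, adjusted p = 0.012 in limma). The other Hells probe sets differed by 0.62 (adjusted p = 0.024 in the limma fit of all probe sets) and by -0.21. Mcm7 went from 0.13, 0.27, 0.10 and 0.01 to -1.19, -1.41, -1.27 and -0.91, again without overlap, and fell by 1.33 (SE 0.30, adjusted p = 0.0021 in limma). The other Mcm7 probe sets differed by -0.49, -0.30 and -0.08. Mcm3, another helicase subunit, went from 0.23, -0.03, 0.25 and 0.01 to -1.31, -0.56, -1.74 and -0.98 and fell by 1.26 (SE 0.48, adjusted p = 0.035 in limma). The other Mcm3 probe sets differed by -0.62 to 0.43.

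Of the other licensing factors, Mcm6 fell by 1.09, Cdc6, which loads the helicase, by 1.04, and Cdt1, its partner, by 0.98. A pair of mitosis genes fell by similar amounts, the kinetochore motor Cenpe by 1.0 and the spindle checkpoint kinase Ttk by 1.0. Chek1 fell by 0.91 and E2f1 by 0.63. None of these 10 genes overlapped between the days, and 29.1% of all genes were lower without overlap. Ccne2, the second E cyclin, had a difference of -0.56 (SE 0.33, adjusted p = 0.15 in limma), Bub1b one of -0.67 (SE 0.33, adjusted p = 0.097) and Mki67 one of -0.61 (SE 0.52, adjusted p = 0.33).

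The 6 genes that rose in stressed wounds were Tpx2, which targets Aurora A to the spindle (1.63, SE 0.18, adjusted p = 1.2e-05 in limma), Kif11, the motor that separates spindle poles (1.03), Kif2c, a kinesin that shortens microtubules (0.79), Tyms, thymidylate synthase (0.69), Cenpa, the centromeric histone (0.67), and Foxm1 (0.47). Tpx2 was -0.09, -0.10, 0.03 and 0.08 at day 6 and 1.72, 1.49, 2.10 and 1.13 at day 14. Its groups did not overlap, as for 4 of the 6 genes (20.4% of all genes were higher without overlap). By the probe set used, Rrm1 had a difference of similar size that missed the threshold (1.08, SE 0.54, adjusted p = 0.098 in limma).

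In unstressed wounds 12 of 47 members passed for time, 8 higher and 4 lower, against 55% of all genes (23.1% higher, 31.8% lower). The median was -0.20, against -0.09 for all genes. Tpx2 rose by 1.55, Cenpa by 0.93, Tyms by 0.88, Kif2c by 0.75, Ccne1 by 0.73, Kif11 by 0.64, Foxm1 by 0.60 and Mybl2 by 0.50. Cenpe fell by 0.89, Ttk by 0.77, Cdc6 by 0.72 and Chek1 by 0.66, each of them with overlap between the days (0 of 4, against 27.9% of all genes lower without overlap), while 6 of the 8 that rose had none (21% of all genes). Ttk was 0.33, 0.39, 0.03 and -0.06 at day 6 and -0.02, -0.05, -0.78 and -1.55 at day 14, so that unstressed replicates 1 and 2 reached the range of day 6. Bub1, a spindle checkpoint kinase, had a difference of -0.79 (SE 0.44, adjusted p = 0.14), Top2a one of 0.92 (SE 0.39, adjusted p = 0.055) and Mki67 one of -0.27 (SE 0.52, adjusted p = 0.68 in limma).

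The 2 time comparisons share no arrays, though the fit takes 1 spread for both. In both, 10 members passed with the same sign, 6 higher (Tpx2, Cenpa, Tyms, Kif2c, Kif11 and Foxm1) and 4 lower (Cenpe, Ttk, Cdc6 and Chek1). The share of all genes that did so was not counted, and 55% and 58.3% passed in the single comparisons. The calls of the 4 genes that fell in unstressed wounds were lost without single arrays. Without unstressed day 14 replicate 4, 12 members passed and all 12 were higher (51% of all genes passed, 21% higher and 30% lower), among them Top2a (1.34, adjusted p = 0.0029), Ccna2 (0.75, adjusted p = 0.012), Cenpf (0.89, adjusted p = 0.028) and Aurka (0.62, adjusted p = 0.021 in limma). Over all arrays, the other Top2a probe sets differed by -0.35 and 0.30, against 0.92 for the one used. The other probe set of Ccna2 differed by -0.13 (used: 0.12) and that of Aurka by 0.19 (used: 0.18). Those of Cenpf differed by 0.30 and 0.13 (used: 0.40). Without all 4 high Xist arrays 21 members were higher and 0 lower (49.7% of all genes passed, 19.9% higher and 29.8% lower), with a median of 0.51, and Mki67 turned to 0.66 (adjusted p = 0.0012). Without unstressed day 6 replicate 1 the count was 7 with 0 lower (50.3% of all genes passed, 29.3% lower), but the differences stayed close to those of all arrays: Cdc6 -0.74, Ttk -0.72, Chek1 -0.61 and Cenpe -0.81. Without replicate 2 of that group it was 7 with 1 lower, Cenpe at -1.04 (47.1% and 27.7%). Without unstressed day 14 replicate 4 the same 4 genes were smaller, at -0.47, -0.46, -0.36 and -0.58.

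In stressed wounds the falls held without the high Xist arrays, where 22 members were lower and 6 higher (57% of all genes passed, 33.4% lower and 23.5% higher), Mcm7 at -1.43 and Hells at -1.86. Leaving out unstressed day 14 replicate 4, which enters that comparison only through the shared spread, gave 25 calls against 59.6% of all genes (24.5% higher, 35.1% lower). Top2a, Pcna and Mki67 passed in neither time comparison of all arrays.

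**Figure D4:**
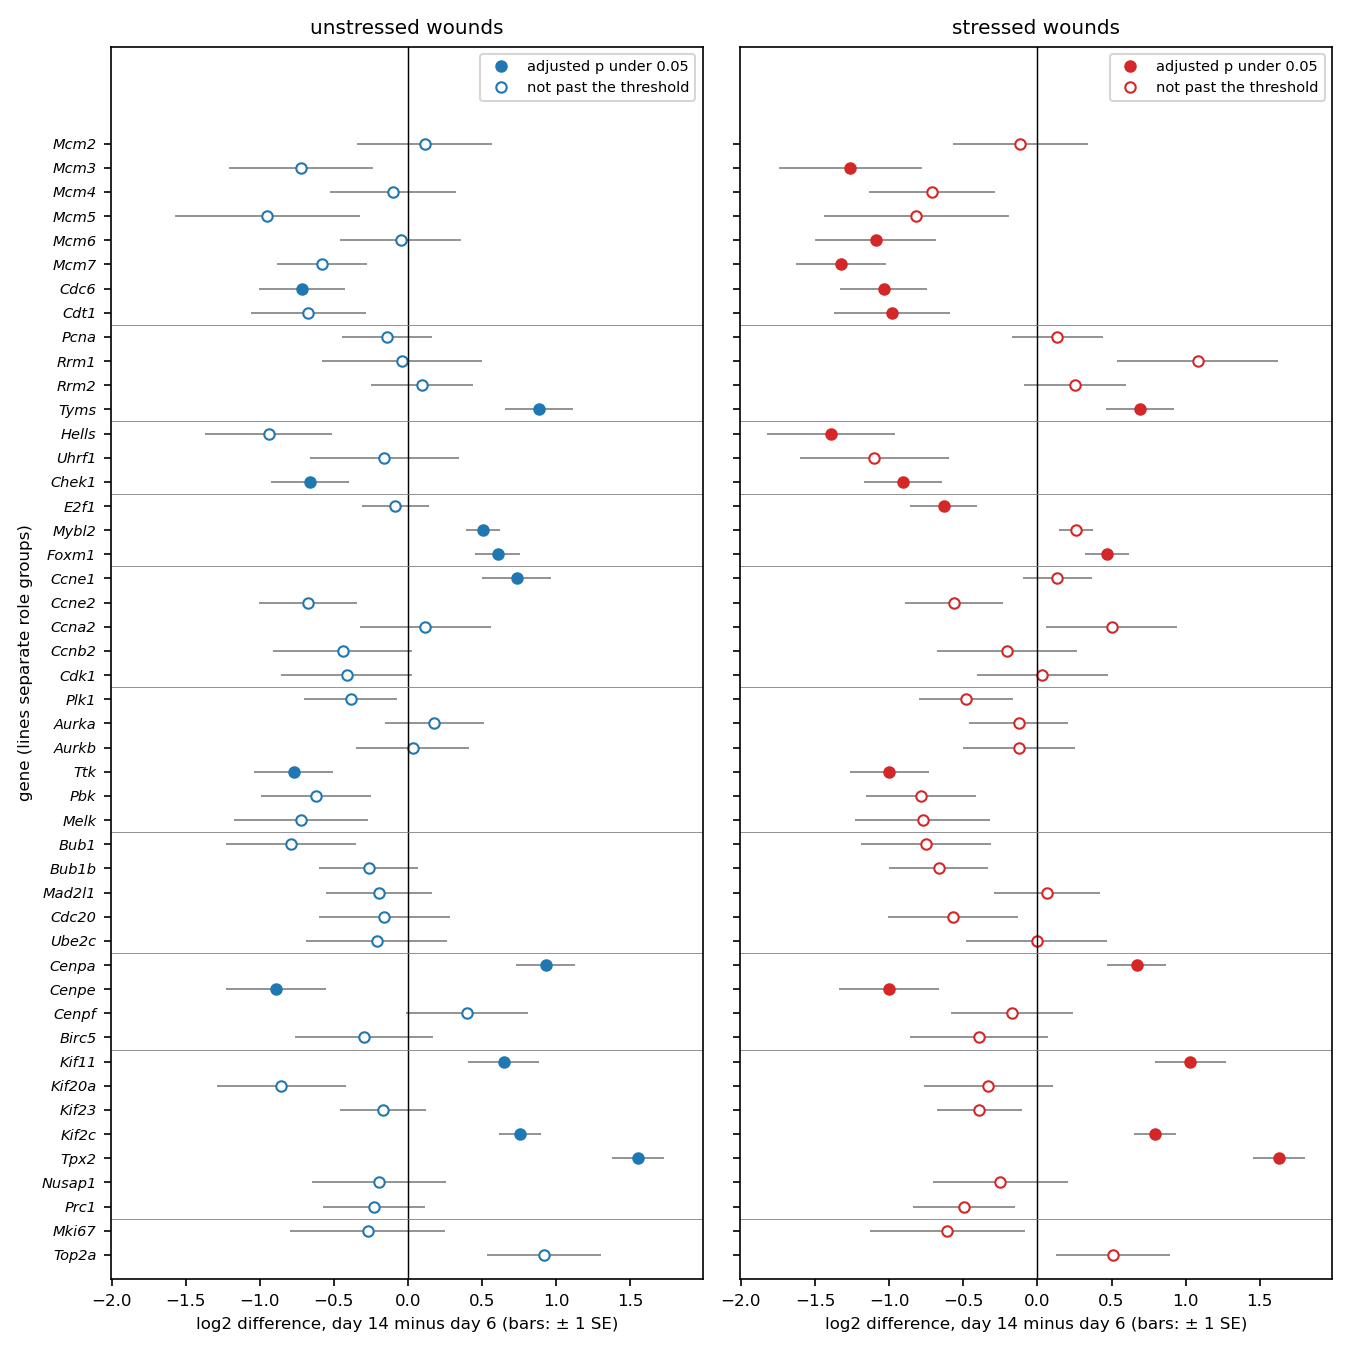
Difference between day 14 and day 6 (log2, bars ± 1 SE of limma) of the 47 members in unstressed and in stressed wounds, by role; filled points passed an adjusted p of 0.05. In stressed wounds the licensing genes at the top all lie below 0, while Tpx2 is the highest in both panels.

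The genes that rose with time were read by probe sets whose values over all arrays had a low correlation with the other members. A member is represented by its most variable probe set, and 34 of the 47 have several. For 37 of the 47 representatives, r with the median of the other members over the 16 arrays was above 0.5, and for 8 it was below 0.3: Tpx2, Cenpa, Kif2c, Ccne1, Mybl2, Tyms, Foxm1 and Kif11. These are the 8 genes called higher in unstressed wounds, and they include the 6 called higher in stressed wounds. Since a gene that rises while others fall has a low r for that reason, r was also taken over deviations from group means. It was then below 0 for Tpx2 (-0.17), Cenpa (-0.26), Kif2c (-0.14), Ccne1 (-0.05) and Mybl2 (-0.05), and it was 0.33 for Tyms, 0.52 for Foxm1 and 0.85 for Kif11.

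Other probe sets of these genes gave other time differences. Tpx2 has 2 that were higher with time in unstressed wounds (1.55 and 1.31) and 2 near 0 (-0.08 and -0.16), and the latter pair followed the other members (r of deviations 0.89 and 0.90). The other probe sets of Cenpa gave -0.05 and -0.43, against 0.93 for the one used. In all, 7 of the 8 genes called higher in unstressed wounds and 6 of 6 in stressed wounds had a probe set of opposite sign, as had 2 of the 3 and 5 of the 9 called lower that have several. With the mean of all probe sets of a gene, 3 members were called in unstressed wounds, all higher (43.9% of all genes, 18.2% higher and 25.7% lower), and 6 in stressed wounds, 2 higher and 4 lower (45.6%, 18.6% and 27%). Fewer of all genes were called too in this setting. Cenpa turned to -0.14 in stressed wounds. Which probe set reads the transcript was not tested.

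**Figure D5:**
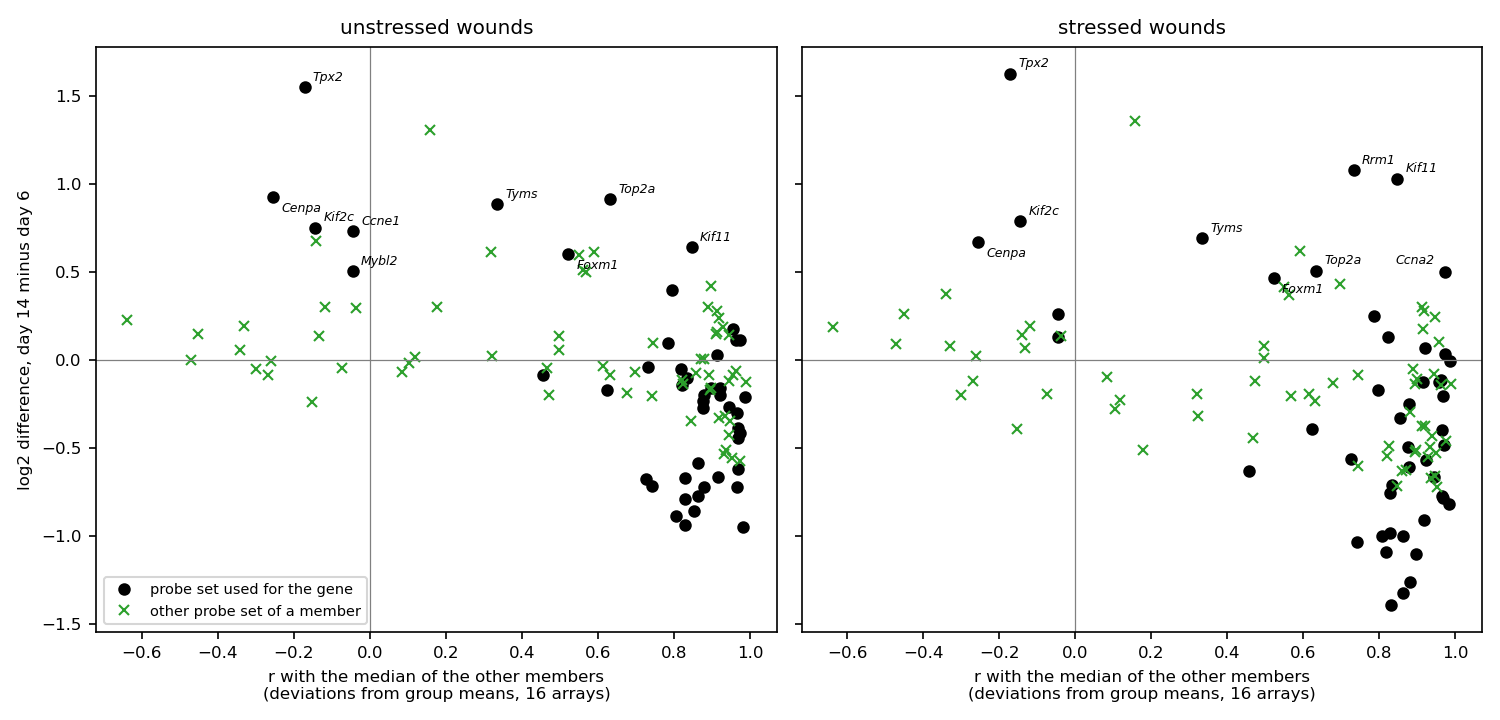
Time difference of the 111 member probe sets (log2, day 14 minus day 6) against r with the median of the other members (deviations from group means, 16 arrays), with dots for the probe set used and crosses for the others. The probe sets at high r lie mostly below or near 0, and Tpx2, Cenpa and Kif2c lie above 0 at negative r.

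Other cell cycle genes that are not members also passed in both directions. For time the shares were 25.6% and 46.5% of the mitosis genes and 32.5% and 47.5% of the S phase genes. Of all genes, 55% passed in unstressed and 58.3% in stressed wounds, which is more. Of 43 mitosis genes, 11 passed for time in unstressed wounds (2 higher, 9 lower) and 20 in stressed wounds (4 higher, 16 lower), among them Zwint, a kinetochore protein (-1.07 and -1.59), Ncapg, a condensin subunit (-1.22 and -1.07), Cdca3 (1.10 and 1.38) and Kif15, a mitotic kinesin (1.20 and 1.16). Of 40 S phase genes, 13 (6 higher, 7 lower) and 19 (6 higher, 13 lower) passed, among them Dnmt1, the maintenance DNA methyltransferase (-1.37 and -1.72), and Nasp, a histone chaperone (1.05 and 1.48). For loading at day 14, 0 of 43 and 0 of 40 passed in limma (8.15% of all genes), with 5 and 1 at an unadjusted p under 0.05. Their medians on unstressed day 14 replicate 4 were -1.26 for mitosis and -1.16 for S phase, and on the other 3 arrays of the group -0.35 to 0.11 and -0.35 to 0.37.

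Among 8 genes of G1 phase, 3 fell with time in both kinds of wound: Cdk6 by 0.85 and 0.99, Cdk4 by 0.61 and 0.79, both kinases of cyclin D, and Myc by 1.06 and 0.96. Ccnd1, cyclin D1, had differences of 0.28 and 0.23 (SE 0.51). Of 17 inhibitors and quiescence genes, 9 passed in unstressed wounds (1 higher, 8 lower) and 12 in stressed wounds (2 higher, 10 lower). These are 52.9% and 70.6%, and the G1 genes 37.5% in both, against 55% and 58.3% of all genes.

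Cdkn1a, the p21 inhibitor of cyclin-dependent kinases, showed the largest change of these lists. It was 0.19, 0.48, -0.40 and 0.74 in unstressed wounds at day 6 and -2.85, -3.25, -2.53 and -2.77 at day 14, and it fell by 3.10 (SE 0.30, adjusted p = 4.7e-06 in limma). In stressed wounds it fell by 3.28 (SE 0.30, adjusted p = 3.8e-06), and for loading at day 14 its difference was -0.18. At day 14, 2 genes of this list passed for loading (11.8%, against 8.15% of all genes): Cdkn1c, the p57 inhibitor, rose by 1.36 (SE 0.24, adjusted p = 0.0046) and Ccng1, cyclin G1, fell by 0.79 (SE 0.18, adjusted p = 0.015 in limma). Cdkn1c was -1.12, -0.96, -1.45 and -1.48 without load and 0.03, 0.14, -0.12 and 0.39 with load, and its groups did not overlap.

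Markers of several cell types moved between the same groups. All 20 hair matrix and shaft markers were higher at day 14, 19 past the threshold in unstressed and 18 in stressed wounds, with medians per array of 1.93 to 3.71 in unstressed and 1.20 to 3.22 in stressed day 14 wounds, against -1.26 to 0.12 at day 6. All 10 macrophage and monocyte markers were lower, 9 and 7 past the threshold. For loading at day 14, 8 of 10 macrophage markers were called higher, and 7 of 12 skeletal muscle and 6 of 8 adipocyte markers lower, while all 20 hair markers were lower with 0 past the threshold in limma and 3 at an unadjusted p under 0.05 (median -0.78). On unstressed day 14 replicate 4 the hair, basal keratinocyte and macrophage medians were 3.48, -0.45 and -1.52, and on the other 3 arrays of its group they ranged from 1.93 to 3.71, from -1.10 to -0.39 and from -2.52 to -1.91. The adipocyte and fibroblast medians of that array were 2.15 and -0.32, against 0.63 to 1.49 and -1.17 to -0.61 on the other 3. Of all genes, 23.1% in unstressed and 24% in stressed wounds were called higher with time, and 31.8% and 34.3% lower. Loading at day 14 called 8.15% of all genes in either direction. The part of these cell types in the members' differences was not tested.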

How the data were processed

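Values are the deposited table of 16 arrays. Array signals were processed by the authors in GeneSpring GX 11.0, per the design text deposited with the series. The deposited values are logs, read as log2 (natural logs are possible and would make differences larger) and centred per probe set on an unknown reference. How background was corrected and arrays were normalized is not given in the sources used here. No filter on low values was applied, and the number of arrays limits the precision.

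Probe sets with 1 symbol in the platform annotation were kept (34945 of 45101), and the probe set of largest interquartile range stood for its gene. All 18193 genes were fitted on 4 group means with limma 3.58.1 in R 4.3.3 (lmFit, eBayes, two-sided, Benjamini-Hochberg over all genes, threshold 0.05). Python 3.11.15 with pandas 2.3.3 and matplotlib 3.10.9 gave tables and plots. The fit was tested on simulated data.

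Members, lists and tests were chosen with earlier results of these data known. Genes named were, per comparison, the 8 largest called differences each way, the smallest p of each role, Mki67, Top2a, Pcna, Cdkn1a and Ccnd1, and up to 4 genes per further list; other names, including those of the alternative fits, Rrm1 and Kif20a at day 6 and Mcm5, were chosen after their values were seen. Ccnb1 is not analysed here. Replicates of a group differed by an SD of at least 0.26. Same-numbered day 14 arrays shared deviations (correlations 0.30, 0.18, 0.27 and 0.19, from the data), and both arrays of a number lie in 1 Xist class. The correlations of day 6 ran from -0.41 to 0.005. The labels name no pairs, the main fit took the arrays as unpaired, and the replicate number entered only the replicate block. Alternatives covered normalization, scaling, array weights, probe set choice, a filter, the replicate block, Xist class and each array left out.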

Additional observations from a re-analysis of the deposited data

Results flagged for a closer look

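Single arrays stood apart for some members named in the report, by Dixon's criterion within a group of 4 at the 95% level. Over the 47 members in 4 groups 20 of 188 tests passed it, and 11 of the 20 lay on stressed day 6 replicate 2. Because the members share arrays and moved together, these tests are not independent, and their count cannot be set against a chance rate. The share over all genes was not counted. On that array the values of the named members were -1.95 for Rrm1, -0.96 for Pcna, -1.04 for Kif20a, -0.47 for Hells and -0.46 for Foxm1. Unstressed day 14 replicate 4 stood apart with -2.57 for Hells, -2.53 for Bub1 and 0.0035 for Foxm1, the lowest value of its group each time. Unstressed day 6 replicate 3 stood apart for Pcna (-0.69) and Kif20a (-0.50), and replicate 1 of that group for Mcm6 (0.44). Stressed day 6 replicate 4 was low for Uhrf1 (0.013), and stressed day 14 replicate 1 was high for Kif11 (1.31).

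Between the Xist classes, the loading difference at day 14 differed for Mcm6 by 1.84, for Mcm7 by 1.67 and for Uhrf1 by 2.95 (high minus low class, 2 arrays per group and class). The median class difference of the members was 1.54 with all arrays and 0.74 without unstressed day 14 replicate 4. A cause was not tested.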

How the results depend on the processing

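For loading at day 6, 0 members were called under every alternative run, and leaving out 1 array gave medians from 0.037 to 0.22. For loading at day 14, where 0 were called, 5 were called lower with array weights, 1 with the mean of probe sets and 1 with all probe sets. The shares of all genes called in these settings are not given here, so the counts cannot be read against them. Without the high Xist arrays 23 were called lower, against 10.6% of all genes (18.7% in either direction). The 4 high Xist arrays alone gave a median of 0.64 and 0 calls. Leaving out 1 array gave 0 to 7 calls and medians from -0.45 to 0.13. The difference between the days had a median of -0.69 with array weights and -0.85 without the high Xist arrays. The latter setting gave 18 calls (7.79% of all genes were called). Leaving out 1 array gave 0 to 0 calls and medians from -0.56 to -0.013. The class difference had 2 calls without unstressed day 14 replicate 4.

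For time in unstressed wounds, the 12 calls became 3 with the mean of probe sets (43.9% of all genes were called). They became 21 without the high Xist arrays (49.7% of all genes, member median 0.51) and 7 with only its 8 arrays. Without 1 of its own arrays they were 7 to 15, with medians from -0.49 to 0.35. For time in stressed wounds, the 16 became 6 and 28 in the first 2 of these settings (45.6% and 57% of all genes). Without 1 of its own arrays they were 11 to 17, with medians from -0.50 to -0.27. The median was -0.20 with all probe sets and -0.058 with Xist class as a block. Mki67 in unstressed wounds reversed to 0.66 without the high Xist arrays, and Cenpa in stressed wounds to -0.14 with the mean of probe sets. The causes were not tested. With the replicate block, 0, 0 and 0 members were called for the loading comparisons, 11 for time in unstressed and 17 in stressed wounds. In the main fit 55% and 58.3% of all genes passed for time. For the replicate block, the fits of only 8 arrays and the ranges without 1 array, such shares are not all given here. The log base and the detection of single probe sets cannot be settled from centred values, which limits all sizes printed.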
